A study of Homo sapiens with 32 samples.

Results

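The genes described here are 9 transcription factors that mark or pattern the epithelium of the Mullerian duct and the endometrium: PAX8, PAX2, SOX17, EMX2, HOXA10, HOXA11, FOXA2, WT1 and GATA2. They were taken by name from a table of 35238 genes, and all 9 were found in it. Bulk RNA of 4 human cell lines of endometrial cancer was sequenced after 24 h of treatment, with 2 libraries per line and treatment and 32 libraries in all. Ishikawa is labelled CTNNB1 wildtype; Ishikawa-S33Y, SNGM and HEC265 are labelled CTNNB1 mutated, CTNNB1 being the gene of beta-catenin. Each line received vehicle (0.1% DMSO), the microtubule drug paclitaxel, SM08502, an inhibitor of the CDC-like kinases (CLK) that phosphorylate splicing factors, or both drugs. Doses were set per line, at its IC50 for each drug. Paclitaxel was given at 11 nM to Ishikawa, 6 nM to Ishikawa-S33Y, 11.7 nM to SNGM and 5.6 nM to HEC265. SM08502 was given at 80 nM to Ishikawa, 85 nM to Ishikawa-S33Y, 350.7 nM to SNGM and 149 nM to HEC265, and the combination used the same doses, so drug changes in different lines were not measured at matched doses. Ishikawa-S33Y is, by its name, Ishikawa with the S33Y form of beta-catenin, and whether it is 1 clone is not given in the sources used here. CTNNB1 status is represented by 1 wildtype line, so it cannot be told apart from other properties of that line. The labels say that cells were plated in duplicate, and p values therefore measure the spread between these duplicates.

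The uterus, oviduct and upper vagina form from the Mullerian ducts. PAX2, PAX8 and EMX2 act early in the urogenital epithelium that gives rise to the ducts, HOXA10 and HOXA11 assign uterine identity along the duct and later serve implantation, and SOX17 and FOXA2 are needed for endometrial glands. GATA2 acts upstream of the progesterone receptor in the uterus, and WT1 is a urogenital factor that in the adult endometrium is known mainly from stroma. PAX8 and SOX17 are used in pathology as markers of Mullerian epithelium.

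Levels are given as CPM, reads of the gene per 1000000 reads counted, and changes as differences of log2(CPM + 1) with their standard error (SE). A change was called at an adjusted p under 0.05 in a limma model of all 32 libraries, with Benjamini-Hochberg adjustment over 17011 genes. The model shares 1 spread per gene over all 16 groups, and groups with almost no reads add almost none. For PAX2, SOX17, EMX2 and WT1, lines without the gene therefore lower the SE used in the lines that hold it. CPM is not corrected for transcript length, so each gene was compared between libraries and not with other genes. Depth ran from 13026400 to 34127623 reads in 30 libraries. The second combination libraries of Ishikawa-S33Y and SNGM held 2991041 and 1607038 reads. Replicate libraries differed by more than counting noise (chi-square over its degrees of freedom 2.78 to 175), so none was merged. The RNA input given in the labels is 350 ng for Ishikawa and 500 ng for the other lines, and input cannot be told apart from the line. A score of 52 long-transcript genes relative to 79 ribosomal protein genes differed between Ishikawa libraries (log2 -2.99 to -1.35) and lay between -1.62 and 0.01 in the other lines. Its values are given where a member moved with it. As a covariate the score had 1 slope per gene for all lines, set only by differences within duplicates. Between lines the fit extends that slope over gaps wider than most duplicates show.

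The lines were checked for epithelial identity. All 9 epithelial markers passed the filter, and their summed level on vehicle was 1437 to 1552 CPM in Ishikawa, 3104 to 3136 CPM in Ishikawa-S33Y, 825 to 890 CPM in SNGM and 2809 to 2820 CPM in HEC265. Among 11 stromal markers TCF21, PDGFRB and LUM never exceeded 1 CPM. Their summed level was 9.11 to 17.0 CPM in SNGM and HEC265, but 118 to 168 CPM in Ishikawa and 1143 to 1171 CPM in Ishikawa-S33Y, where COL1A1 made up most of it with vehicle means of 134 and 1145 CPM. The endothelial sum stayed at or under 12.5 CPM, with CDH5 and KDR never above 1 CPM. The leukocyte sum stayed at or under 52.0 CPM, with CD3E never above 1 CPM.

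Upstream sequence of 4 members is shown because their levels separated the lines most or moved together under drug. It is reference sequence, not sequence of these lines. RefSeq (GRCh38.p14) gave windows for 7 of the 9 members, and FOXA2 and SOX17 had no entry. Each line holds the 250 bases before the annotated start of the gene, 5′ to 3′ on its own strand, with CCAAT boxes in capitals. The windows are chr2:113278922-113279171 on the minus strand for PAX8, chr10:117542496-117542745 on the plus strand for EMX2, chr10:100735146-100735395 on the plus strand for PAX2 and chr7:27185233-27185482 on the minus strand for HOXA11.
PAX8: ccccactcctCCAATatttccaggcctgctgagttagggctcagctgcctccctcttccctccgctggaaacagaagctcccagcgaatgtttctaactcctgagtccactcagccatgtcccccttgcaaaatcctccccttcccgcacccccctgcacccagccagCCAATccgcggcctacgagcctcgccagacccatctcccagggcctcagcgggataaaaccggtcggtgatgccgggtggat
EMX2: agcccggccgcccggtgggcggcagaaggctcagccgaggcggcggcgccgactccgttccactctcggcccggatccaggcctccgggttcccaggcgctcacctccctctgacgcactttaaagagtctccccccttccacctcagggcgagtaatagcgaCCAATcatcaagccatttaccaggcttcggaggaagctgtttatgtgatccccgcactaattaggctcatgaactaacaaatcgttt
PAX2: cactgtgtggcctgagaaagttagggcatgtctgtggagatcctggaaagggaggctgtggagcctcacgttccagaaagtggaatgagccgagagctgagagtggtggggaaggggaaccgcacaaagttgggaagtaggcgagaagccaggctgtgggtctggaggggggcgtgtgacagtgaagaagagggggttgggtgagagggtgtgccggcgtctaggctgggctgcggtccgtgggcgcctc
HOXA11: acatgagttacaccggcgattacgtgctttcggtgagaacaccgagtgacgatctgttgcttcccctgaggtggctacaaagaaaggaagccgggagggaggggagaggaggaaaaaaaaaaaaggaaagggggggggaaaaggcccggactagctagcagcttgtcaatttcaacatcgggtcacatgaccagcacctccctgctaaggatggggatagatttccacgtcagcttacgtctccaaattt
A set of 4 motifs was searched on both strands, with no overlap between their letters: CCAAT, the TATA box TATAAA, the TCF/LEF motif CTTTGAT bound by the partners of beta-catenin, and the cyclic AMP response element TGACGTCA. CCAAT was present in 5 of 13 windows of the members (PAX8, EMX2, and windows of HOXA10 and GATA2), and in 11194 of 34943 windows of the same length (32%). TATAAA was found in 2 of the 13 windows, both of HOXA10, against 10.8% of all windows. CTTTGAT and TGACGTCA were in none of the 13, against 2.27% and 1.63% of all windows. The PAX8 window holds 2 CCAAT boxes and the EMX2 window holds 1. The PAX2 and HOXA11 windows hold none of these letters.

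In the same annotation PAX8 spans chr2:113215997-113278921, PAX2 chr10:100735396-100829944, EMX2 chr10:117542746-117549546, HOXA10 chr7:27170605-27179861, HOXA11 chr7:27181157-27185232, FOXA2 chr20:22580998-22585490, WT1 chr11:32387775-32435539 and GATA2 chr3:128479422-128493201. PAX8, EMX2, HOXA10, WT1 and GATA2 overlap a noncoding or readthrough gene there (PAX8-AS1, EMX2OS, HOXA10-AS with HOXA10-HOXA9, WT1-AS and GATA2-AS1). Whether reads were counted by strand is not given in the sources used here, so part of the counts of these 5 genes may belong to the overlapping gene.

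On vehicle the 4 lines carried different combinations of the 9 factors. PAX8, HOXA10, HOXA11 and GATA2 exceeded 1 CPM in all 32 libraries. SOX17 exceeded it in all libraries of Ishikawa, Ishikawa-S33Y and HEC265 and in none of SNGM. EMX2 did so in all 16 libraries of the Ishikawa pair, and in 1 library of SNGM. PAX2 exceeded 1 CPM only in the 8 libraries of SNGM, WT1 only in 14 libraries of the Ishikawa pair, and FOXA2 in 27 libraries. All 9 passed the filter of more than 1 CPM in at least 2 libraries, PAX2 only through SNGM. EMX2 and WT1 passed only through the Ishikawa pair, as 1 library of SNGM would not suffice for EMX2. For PAX2, EMX2 and WT1 a difference between lines therefore follows from passing the filter.

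**Figure D1:**
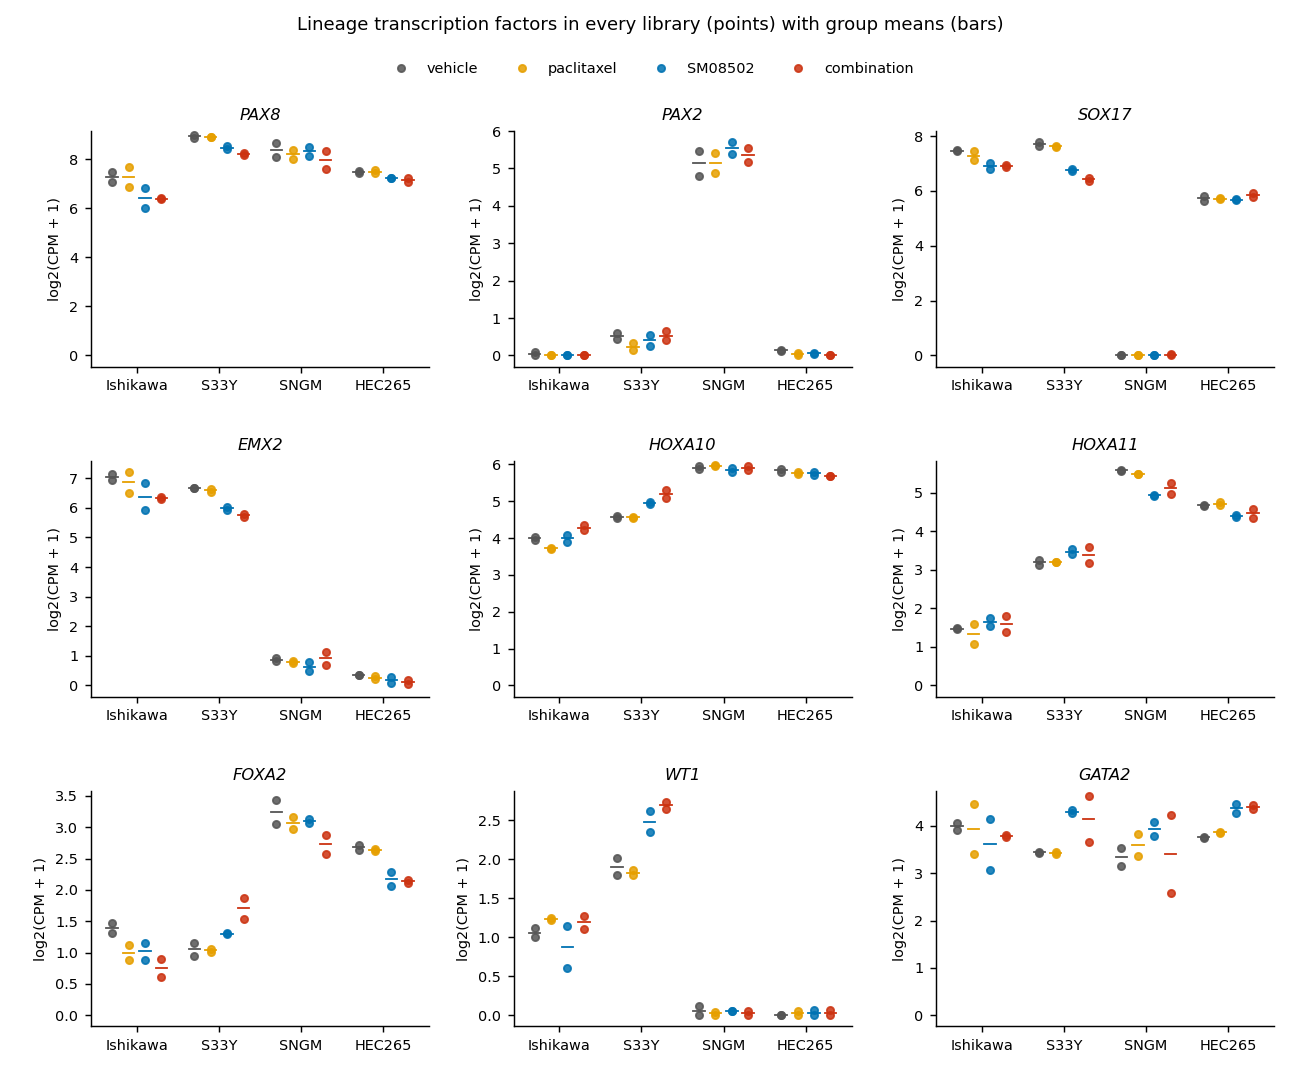
Level of each factor, as log2(CPM + 1) on the vertical axis, in the 32 libraries (points) with the mean of each group of 2 (bars), by cell line (S33Y stands for Ishikawa-S33Y) and treatment. SOX17 lies at 0 in SNGM, PAX2 above 26 CPM in SNGM alone, and EMX2 and WT1 above 1 CPM mainly in the 2 Ishikawa lines. For these genes drug shifts within a line are smaller than the gaps to the lines that lack them.

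Of 54 differences between lines on vehicle, 37 were called. Ishikawa-S33Y against Ishikawa gave 4 of 9, where 48.3% of all genes tested were called. SNGM gave 8 of 9 against Ishikawa (66.8% of all genes) and 7 of 9 against Ishikawa-S33Y (60.8%). HEC265 gave 6 of 9 against Ishikawa (63.3%), 7 of 9 against Ishikawa-S33Y (58.0%) and 5 of 9 against SNGM (54.9%). Lines differed at a large share of all genes, so the counts of members are no result about them, and the description turns on which factor is high in which line.

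PAX8 was present in every line. Its vehicle libraries held 134 and 179 CPM in Ishikawa, 514 and 472 CPM in Ishikawa-S33Y, 274 and 405 CPM in SNGM, and 183 and 174 CPM in HEC265. Ishikawa-S33Y was highest, with no overlap with the other lines, and Ishikawa and HEC265 overlapped. PAX8 was 1.66 ± 0.26 (log2 ± SE) higher in Ishikawa-S33Y than in Ishikawa (adjusted p = 2.2e-05), while HEC265 differed from Ishikawa by 0.20 ± 0.26 (adjusted p = 0.528). SNGM was above Ishikawa by 1.10 ± 0.26 (adjusted p = 0.000833) and below Ishikawa-S33Y by an uncalled -0.56 ± 0.26 (adjusted p = 0.0661). The long-transcript score on vehicle ran from -2.58 to -2.11 in Ishikawa, from -1.13 to -0.995 in Ishikawa-S33Y, from -0.43 to 0.01 in SNGM and from -0.62 to -0.51 in HEC265. The score was thus higher than in Ishikawa in all 3 other lines, and whether it underlies the PAX8 differences was not tested. With it as a covariate the excess of Ishikawa-S33Y over Ishikawa was 0.81 (adjusted p = 0.00134), that of SNGM turned to -0.31 (adjusted p = 0.288) and that of HEC265 to -0.98 (adjusted p = 0.000612). These values extend a slope found within duplicates across the gaps between lines. HEC265 was lower than SNGM (-0.90 ± 0.26, adjusted p = 0.00565), a call lost without the second vehicle library of SNGM (adjusted p = 0.112).

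PAX2, the close relative of PAX8, was confined among these lines to SNGM at more than 1 CPM. SNGM on vehicle held 26.7 and 43.6 CPM. Ishikawa-S33Y held 0.345 and 0.503 CPM (19 reads), HEC265 0.089 and 0.116 CPM (5 reads), and Ishikawa 0.0617 and 0 CPM (1 read). SNGM thus lay far above all others, by a ratio of summed reads of 82.5 to Ishikawa-S33Y (95% exact counting interval 52.7 to 137) and of 344 to HEC265 (147 to 1059). Intervals of this kind cover counting error only. Over all 8 libraries PAX2 gave 8304 reads in SNGM and 1 read in Ishikawa.

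SOX17, a factor of endometrial glands and of Mullerian epithelium, showed the opposite pattern. Vehicle libraries held 177 and 174 CPM in Ishikawa, 221 and 197 CPM in Ishikawa-S33Y and 49.0 and 55.4 CPM in HEC265. SNGM gave 0 reads in both, and 1 read over its 8 libraries. Against the floor of 3 reads over both SNGM vehicle libraries (0.0458 CPM), SOX17 was at least 3834-fold higher in Ishikawa and at least 1138-fold higher in HEC265. HEC265 lay below Ishikawa by -1.74 ± 0.11 (log2, adjusted p = 4.91e-12), and the Ishikawa pair differed by an uncalled 0.24 ± 0.11 (adjusted p = 0.0653).

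EMX2, a homeobox factor of the urogenital epithelium, divided the lines in 2. Ishikawa held 121 and 141 CPM on vehicle and Ishikawa-S33Y 101 and 99.9 CPM. SNGM held 0.766 and 0.879 CPM, and HEC265 0.267 and 0.270 CPM. In summed reads EMX2 was 157 times higher in Ishikawa than in SNGM (95% exact interval 120 to 209) and 482 times higher than in HEC265 (282 to 906). The Ishikawa pair did not differ by the test (-0.37 ± 0.22, adjusted p = 0.182), although with the length score as a covariate Ishikawa-S33Y was called lower (-1.04, adjusted p = 0.000169).

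HOXA10 and HOXA11 were both lower in the Ishikawa pair than in HEC265 and SNGM. HOXA10 on vehicle was 14.4 and 15.4 CPM in Ishikawa, 23.1 and 22.3 CPM in Ishikawa-S33Y, 54.7 and 58.1 CPM in HEC265, and 60.7 and 58.0 CPM in SNGM. The last pair was the only pair of lines not called different in HOXA10 (HEC265 minus SNGM -0.07 ± 0.09, adjusted p = 0.557). HOXA11 was 1.79 and 1.77 CPM in Ishikawa, 8.53 and 7.71 CPM in Ishikawa-S33Y, 24.3 and 24.8 CPM in HEC265, and 45.9 and 47.4 CPM in SNGM. No 2 lines overlapped in HOXA11 and all 6 of its differences were called. The step from Ishikawa to SNGM was 4.10 ± 0.17 for HOXA11 (adjusted p = 3.92e-15) and 1.92 ± 0.09 for HOXA10 (adjusted p = 9.25e-14).

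Of the 9 other HOXA genes, HOXA2 and HOXA3 had vehicle means in the order of HOXA11 (SNGM, HEC265, Ishikawa-S33Y, Ishikawa) and the other 7 did not, as the plot of the cluster shows. The genes named here were chosen after their values were seen. HOXA9, the neighbour of HOXA10, held 63.0 and 66.3 CPM in HEC265 on vehicle but 6.77 and 7.30 CPM in SNGM. HOXA7 was highest in Ishikawa-S33Y at 55.9 and 53.0 CPM and had 0 and 0.116 CPM in HEC265. HOXA3 was highest in SNGM at 87.5 and 104.5 CPM and lowest in Ishikawa at 1.85 and 2.76 CPM, and HOXA2 had means of 11.9 CPM in SNGM and 1.01 CPM in Ishikawa. Among the 11 HOXA genes the vehicle mean was under 1 CPM for HOXA9 in Ishikawa and for HOXA4 and HOXA7 in HEC265, and above it in every other case. Outside the cluster, HOXD9 and HOXD13 gave 0 reads in all 16 libraries of SNGM and HEC265 and 385 and 315 reads in Ishikawa.

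**Figure D2:**
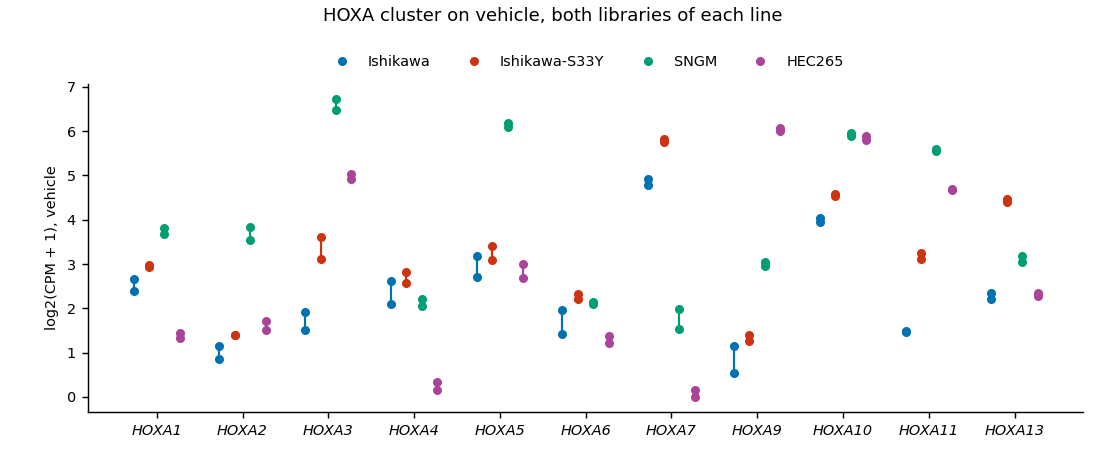
Level of 11 HOXA genes, as log2(CPM + 1) on the vertical axis, in both vehicle libraries (points joined by a line) of each cell line. SNGM and HEC265 lie together at the top for HOXA10, HEC265 stands alone for HOXA9, and the Ishikawa pair is highest for HOXA7.

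FOXA2, the forkhead factor of endometrial glands, was low everywhere. Its vehicle libraries held 7.28 and 9.85 CPM in SNGM, 5.25 and 5.56 CPM in HEC265, 1.48 and 1.77 CPM in Ishikawa, and 1.23 and 0.922 CPM in Ishikawa-S33Y. SNGM and HEC265 lay above both Ishikawa lines without overlap. SNGM exceeded Ishikawa by 1.86 ± 0.17 (adjusted p = 2.94e-09) and HEC265 by 1.29 ± 0.17 (adjusted p = 8.43e-07). The difference between HEC265 and SNGM (-0.57 ± 0.17, adjusted p = 0.00719) was lost without the second vehicle library of SNGM (-0.37, adjusted p = 0.14). Its relative FOXA1, named after its values were seen, gave 0 reads in all 8 libraries of SNGM, 64.9 and 62.8 CPM in HEC265 on vehicle, 15.5 and 19.9 CPM in Ishikawa, and 16.3 and 14.9 CPM in Ishikawa-S33Y. SNGM was thus the line with the most FOXA2 and no read of FOXA1.

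WT1 was seen at a low level in the Ishikawa pair. Ishikawa-S33Y held 2.46 and 3.06 CPM on vehicle, and Ishikawa 1.17 and 0.998 CPM. SNGM held 0 and 0.0879 CPM (3 reads) and HEC265 0 reads, so WT1 was at least 44.5-fold higher in Ishikawa-S33Y than in HEC265 against a floor of 3 reads (0.0620 CPM). Within the pair Ishikawa-S33Y was higher by 0.85 ± 0.15 (adjusted p = 7.47e-05).

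GATA2 was the member that differed least between lines. Vehicle libraries held 14.1 and 15.7 CPM in Ishikawa, 9.76 and 9.94 CPM in Ishikawa-S33Y, 7.89 and 10.5 CPM in SNGM, and 12.6 and 12.5 CPM in HEC265. None of its 6 differences was called (adjusted p 0.16 to 0.85), with an SE of 0.40. With the length score as a covariate the 3 other lines were called lower than Ishikawa, at -1.57 in Ishikawa-S33Y (adjusted p = 0.00384), -2.34 in SNGM (adjusted p = 0.00075) and -1.65 in HEC265 (adjusted p = 0.00583). These covariate values have the limit given for PAX8. GATA4, another GATA factor and likewise named after its values were seen, was present in the Ishikawa pair alone, with 6.29 and 7.22 CPM in Ishikawa and 14.1 and 12.9 CPM in Ishikawa-S33Y on vehicle, and 1 read over 8 libraries in each of SNGM and HEC265.

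SM08502 lowered SOX17 and PAX8 in Ishikawa and SOX17 and EMX2 in Ishikawa-S33Y, and raised HOXA10 and WT1 in Ishikawa-S33Y. In SNGM HOXA11 fell, and in HEC265 FOXA2 fell. These are 8 of 36 member changes. By line they are 2 of 9 in Ishikawa, where 15.2% of all genes were called, 4 of 9 in Ishikawa-S33Y (29.1%), 1 of 9 in SNGM (7.86%) and 1 of 9 in HEC265 (14.7%). The median member change was -0.37 in Ishikawa and 0.25 in Ishikawa-S33Y, against 0.00 and 0.11 over all genes. It was -0.06 in SNGM and -0.09 in HEC265, against 0.00 and 0.07. The combination gave 13 of 36, namely 5 of 9 in Ishikawa (22.8% of all genes), 6 of 9 in Ishikawa-S33Y (42.0%), 1 of 9 in SNGM (18.4%) and 1 of 9 in HEC265 (19.5%). Paclitaxel alone gave 0 of 36. With a pseudocount of 0.1 in place of 1 the calls numbered 4 for SM08502 (PAX8 in Ishikawa, SOX17 in both Ishikawa lines and HOXA10 in Ishikawa-S33Y) and 8 for the combination (PAX8, SOX17, HOXA10 and FOXA2 in both Ishikawa lines).

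**Figure D3:**
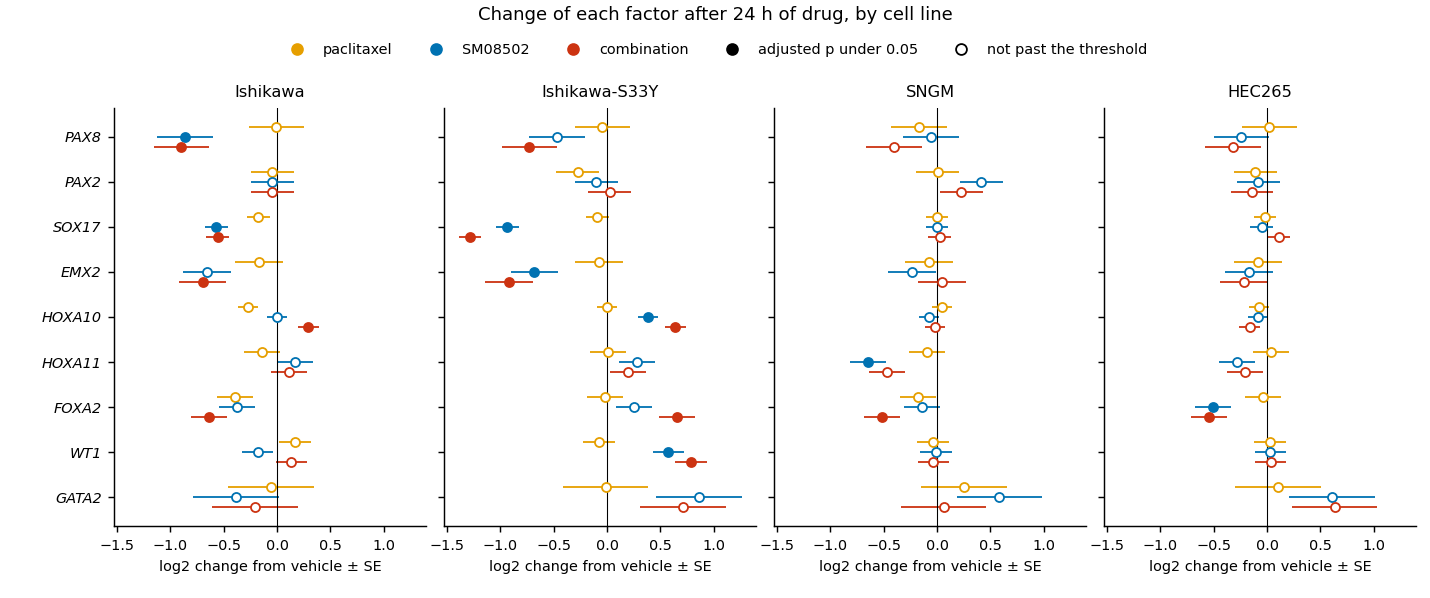
Change of each factor from vehicle on the log2(CPM + 1) scale (horizontal axis, point ± SE) in each cell line for paclitaxel, SM08502 and the combination. Filled points passed an adjusted p of 0.05; they lie mostly in the 2 Ishikawa lines, where SOX17 fell under SM08502 and under the combination.

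SOX17 gave the smallest adjusted p among the drug changes of the 9 factors. In Ishikawa-S33Y it went from 221 and 197 CPM on vehicle to 111 and 106 CPM under SM08502 and 88.4 and 81.9 CPM under the combination, with 194 and 197 CPM under paclitaxel. All 4 libraries with SM08502 lay below all 4 without it. The changes were -0.93 ± 0.11 for SM08502 (adjusted p = 2.94e-06) and -1.28 ± 0.11 for the combination (adjusted p = 2.12e-08), and both were called under every alternative run. In Ishikawa the values were 177 and 174 CPM on vehicle, 175 and 138 CPM under paclitaxel, 127 and 109 CPM under SM08502, and 124 and 115 CPM under the combination. SM08502 again gave no overlap with vehicle (-0.57 ± 0.11, adjusted p = 0.00121), as did the combination (-0.55 ± 0.11, adjusted p = 0.00102). Both calls were lost when the Ishikawa libraries were fitted alone (SE 0.15, adjusted p = 0.127 and 0.0985). In HEC265 all 8 libraries held 49.0 to 59.3 CPM and no change was called, with SM08502 at -0.05 (95% interval -0.27 to 0.17). In SNGM there was no SOX17 level to compare.

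The size of the SOX17 change differed between lines. An F test over the 4 lines gave an adjusted p of 0.000816 for SM08502, where 12.4% of all genes passed, and 6.09e-06 for the combination, where 27.1% passed. Without SNGM, which has no SOX17 reads, the F test gave 0.00328 and 1.57e-05; this alternative was chosen after seeing the data. Between the Ishikawa pair the combination effect was more negative in Ishikawa-S33Y by -0.73 ± 0.15 (adjusted p = 0.00467, with 10.5% of all genes passing), and the SM08502 effect by an uncalled -0.37 ± 0.15 (adjusted p = 0.209). For SM08502 limma called 0 of 9 members in that contrast and 2.43% of all genes, with 5 members at an unadjusted p under 0.05 and 1, SOX17, called by limma voom (-0.51, adjusted p = 0.0335). For the combination it called 2 of 9.

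PAX8 fell in Ishikawa under both treatments that held SM08502. It was 134 and 179 CPM on vehicle, 206 and 116 CPM under paclitaxel, 112 and 64.4 CPM under SM08502, and 81.7 and 84.1 CPM under the combination. The SM08502 libraries lay below those on vehicle, and paclitaxel covered the vehicle range on both sides. The changes were -0.86 ± 0.26 (adjusted p = 0.0284) for SM08502 and -0.90 ± 0.26 (adjusted p = 0.0169) for the combination. The SM08502 call was lost without its second library (-0.46, adjusted p = 0.395) or without the second vehicle library (-0.65, adjusted p = 0.242). The combination call was lost without the second vehicle library (adjusted p = 0.171) or either combination library (0.0839 and 0.0812), and in a fit of Ishikawa alone the adjusted p was 0.248 and 0.184.

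In Ishikawa-S33Y, PAX8 went from 514 and 472 CPM on vehicle to 369 and 343 CPM under SM08502 and 304 and 290 CPM under the combination. The groups did not overlap. The SM08502 change of -0.47 ± 0.26 was not called (adjusted p = 0.19), and the combination change of -0.73 ± 0.26 was (adjusted p = 0.0286). Leaving out any 1 of the 4 libraries of that contrast ended the combination call (adjusted p 0.0704 to 0.13), while a fit of Ishikawa-S33Y alone gave an adjusted p of 0.00133 for SM08502 and 0.000118 for the combination. PAX8 was not called in SNGM, at -0.06 ± 0.26 for SM08502, or in HEC265, at -0.24 ± 0.26, where it went from 183 and 174 CPM to 150 and 151 CPM. A fit of HEC265 alone called PAX8 lower there under SM08502 (adjusted p = 0.046) and under the combination (-0.32, adjusted p = 0.0162).

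EMX2 fell in Ishikawa-S33Y under SM08502 and in both Ishikawa lines under the combination. In Ishikawa-S33Y it was 101 and 99.9 CPM on vehicle, 64.7 and 60.1 CPM under SM08502, and 54.9 and 50.8 CPM under the combination. Every library with SM08502 lay under those on vehicle. The change was -0.68 ± 0.22 for SM08502 (adjusted p = 0.0265) and -0.92 ± 0.22 for the combination (adjusted p = 0.00239). The former was lost without any 1 of its 4 libraries (adjusted p 0.0756 to 0.142), while a fit of this line alone gave 0.000382. In Ishikawa EMX2 was 121 and 141 CPM on vehicle, 149 and 90.4 CPM under paclitaxel, 112 and 60.6 CPM under SM08502, and 81.5 and 78.5 CPM under the combination. SM08502 gave an uncalled -0.65 ± 0.22 (adjusted p = 0.0523) and the combination -0.70 ± 0.22 (adjusted p = 0.0288). The latter call was lost without any 1 of its 4 libraries (change -0.81 to -0.59). A fit of Ishikawa alone also ended it (adjusted p = 0.257).

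Replicates of PAX8, EMX2 and GATA2 in Ishikawa followed the long-transcript score on vehicle, under paclitaxel and under SM08502. Under the combination (score -2.66 and -2.80) EMX2 did, but PAX8 (81.7 and 84.1 CPM) and GATA2 (12.6 and 12.9 CPM) did not. The score was -1.35 and -2.99 in the 2 paclitaxel libraries and -2.10 and -2.99 in the 2 SM08502 libraries, and in each pair the library with the lower score held less of all 3 genes. GATA2 was 21.0 and 9.62 CPM in the paclitaxel pair and 16.7 and 7.42 CPM in the SM08502 pair. SOX17 was also lower at the lower score in these pairs (175 and 138, 127 and 109 CPM), but not on vehicle (177 and 174 CPM). In SNGM, PAX8, PAX2 and GATA2 were lower in the library with the lower score in every replicate pair. The SNGM score was -0.43 and 0.01 on vehicle and -0.52 and -0.20 under paclitaxel. It was -0.32 and -0.38 under SM08502, and -0.26 and -0.74 under the combination. HEC265 and Ishikawa-S33Y did not follow the score throughout. PAX8 in HEC265 was lower at the lower score on vehicle, but not in its other pairs. It was 189 and 173 CPM at -0.76 and -0.65 under paclitaxel, and 152 and 134 CPM at -0.97 and -0.81 under the combination. In Ishikawa-S33Y PAX8 followed the score except under the combination, where GATA2 was 23.8 and 11.7 CPM at -1.62 and -1.28. With the score as a covariate PAX8 in Ishikawa changed by -0.73 under SM08502 (adjusted p = 0.00068) and -0.64 under the combination (adjusted p = 0.00204), SOX17 by -0.54 (adjusted p = 0.000125) and -0.49 (adjusted p = 0.000318), and EMX2 under the combination by -0.50 (adjusted p = 0.0154). In Ishikawa-S33Y the score was -0.995 and -1.13 on vehicle, -1.29 and -1.23 under SM08502, and -1.62 and -1.28 under the combination. With the covariate SOX17 changed there by -0.90 and -1.22 (adjusted p = 9.46e-08 and 8.83e-10), EMX2 by -0.58 and -0.72 (0.0031 and 0.000395), and PAX8 under the combination by -0.48 in place of -0.73 (0.0087).

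**Figure D4:**
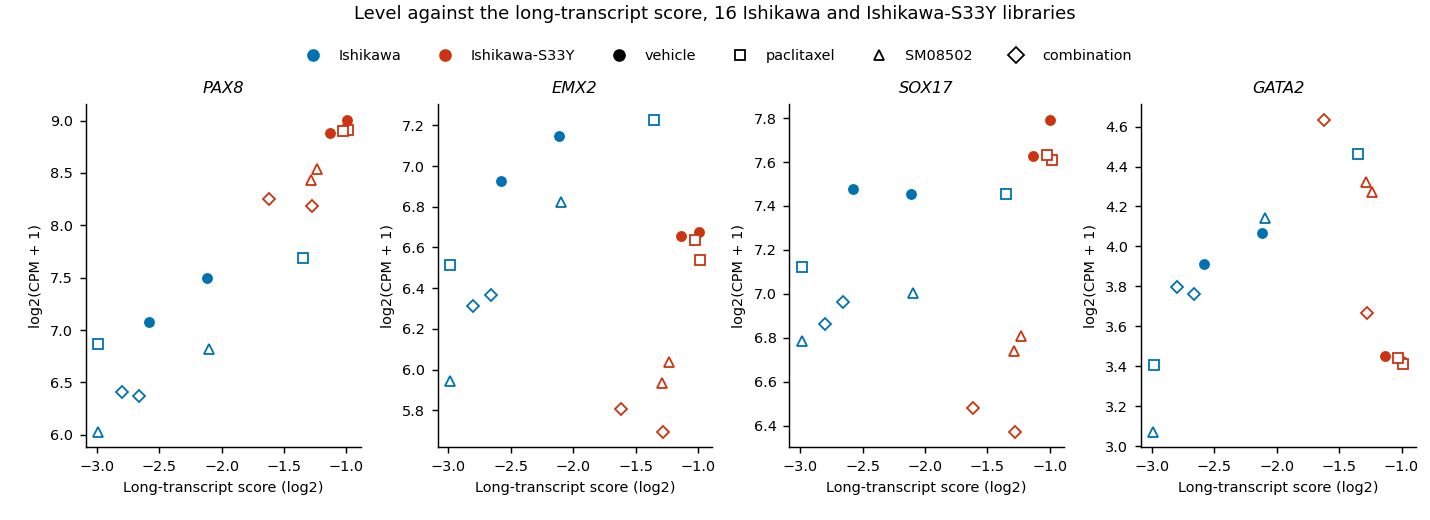
Level of PAX8, EMX2, SOX17 and GATA2, as log2(CPM + 1), against the score of long-transcript over ribosomal protein genes (log2) in the 16 libraries of Ishikawa and Ishikawa-S33Y, with the treatment shown by symbol. PAX8, EMX2 and GATA2 of the Ishikawa libraries are mostly higher at a higher score, and the SM08502 and combination libraries of Ishikawa-S33Y, whose scores are somewhat lower than on vehicle, lie below vehicle for PAX8, EMX2 and SOX17.

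HOXA10 moved the other way in Ishikawa-S33Y. It was 23.1 and 22.3 CPM on vehicle, 22.4 and 22.9 CPM under paclitaxel, 30.5 and 29.2 CPM under SM08502, and 33.2 and 38.8 CPM under the combination. The libraries with SM08502 did not overlap those without it. SM08502 raised HOXA10 by 0.38 ± 0.09 (adjusted p = 0.0044) and the combination by 0.64 ± 0.09 (adjusted p = 1.77e-05). A fit of limma voom on recovered reads ended the first call (0.23, adjusted p = 0.086). In Ishikawa SM08502 left it at 13.9 and 16.1 CPM against 14.4 and 15.4 CPM, a change of 0.00 with a 95% interval of -0.20 to 0.20, and the combination gave 19.5 and 17.5 CPM (0.29 ± 0.09, adjusted p = 0.0299), a call lost without any 1 of its 4 libraries (adjusted p 0.0502 to 0.229). The combination call in Ishikawa was also lost in a fit of that line alone (adjusted p = 0.287) and with limma voom (0.136). SNGM and HEC265 held 50.0 to 62.2 CPM throughout with no call, although a fit of HEC265 alone called the combination change of -0.16 (adjusted p = 0.0274). The combination effect on HOXA10 differed between lines by the F test (adjusted p = 0.000722).

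HOXA11 fell under SM08502 in SNGM, the line with the most of it. It was 45.9 and 47.4 CPM on vehicle, 43.4 and 43.9 CPM under paclitaxel, 29.8 and 29.1 CPM under SM08502, and 30.1 and 37.3 CPM under the combination. SM08502 and combination libraries all lay below the other 4. SM08502 gave -0.65 ± 0.17 (adjusted p = 0.0196), lost without any 1 of the 4 libraries compared (adjusted p 0.0901 to 0.125), and the combination an uncalled -0.46 ± 0.17 (adjusted p = 0.0602). The SM08502 call in SNGM was also lost in a fit of that line alone (adjusted p = 0.0731). The SM08502 changes of HOXA11 in the other lines were 0.17 in Ishikawa, 0.28 in Ishikawa-S33Y and -0.28 in HEC265, none of them called, and the F test over lines gave an adjusted p of 0.0315. The readthrough gene HOXA10-HOXA9 had reads mainly in SNGM, with 1.63 and 2.40 CPM on vehicle and 0.254 and 0.285 CPM under SM08502 (-1.24 ± 0.17, adjusted p = 7.58e-05), while HOXA10 itself was 54.2 and 58.7 CPM against 60.7 and 58.0 CPM there.

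FOXA2 moved in opposite directions in the Ishikawa pair under the combination. In Ishikawa it was 1.48 and 1.77 CPM on vehicle, 1.21 and 0.851 CPM under SM08502, and 0.855 and 0.523 CPM under the combination. In Ishikawa-S33Y it was 1.23 and 0.922 CPM on vehicle, 1.46 and 1.48 CPM under SM08502, and 1.90 and 2.67 CPM under the combination, the last from 8 reads in the shallow library. The combination libraries did not overlap those on vehicle in either line. The combination changed FOXA2 by -0.64 ± 0.17 in Ishikawa (adjusted p = 0.00964) and by 0.66 ± 0.17 in Ishikawa-S33Y (adjusted p = 0.00357), and the difference of 1.30 ± 0.24 was called (adjusted p = 0.00197). A fit of Ishikawa alone ended the call in that line (adjusted p = 0.0944), and limma voom ended the one in Ishikawa-S33Y (0.0559). The Ishikawa call was lost without the second vehicle library (adjusted p = 0.0905) or the second combination library (0.13), and the Ishikawa-S33Y call without the second vehicle library (0.0527) or the shallow second combination library (0.0614).

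In HEC265 FOXA2 went from 5.25 and 5.56 CPM on vehicle to 3.17 and 3.86 CPM under SM08502 and 3.30 and 3.49 CPM under the combination, with 5.29 and 5.16 CPM under paclitaxel. No library with SM08502 reached those without it. The changes were -0.51 ± 0.17 (adjusted p = 0.0464) and -0.54 ± 0.17 (adjusted p = 0.0262). The SM08502 call was lost in 20 of 32 runs that left out 1 library, any library of that contrast among them (adjusted p 0.0521 to 0.32), and the combination call without any 1 of its 4 libraries (0.0936 to 0.143), while a fit of HEC265 alone gave 0.0109 and 0.00737. In SNGM FOXA2 was 7.28 and 9.85 CPM on vehicle and 6.38 and 4.98 CPM under the combination (-0.51 ± 0.17, adjusted p = 0.0387). A fit of SNGM alone ended that call (adjusted p = 0.231). That call was lost without the shallow second combination library (-0.36, adjusted p = 0.287) or the second vehicle library (-0.32, adjusted p = 0.37).

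WT1 rose in Ishikawa-S33Y. It was 2.46 and 3.06 CPM on vehicle, 2.64 and 2.48 CPM under paclitaxel, 4.08 and 5.14 CPM under SM08502, and 5.24 and 5.68 CPM under the combination, without overlap between libraries with and without SM08502. The changes were 0.57 ± 0.15 (adjusted p = 0.00594) and 0.78 ± 0.15 (adjusted p = 0.000243). The SM08502 call was lost without the first vehicle library (adjusted p = 0.0861) or the second SM08502 library (0.103), with quantile normalization (0.0616) and with limma voom (0.145). With a pseudocount of 0.1 both calls were lost (0.186 for SM08502 and 0.0509 for the combination). In Ishikawa WT1 was 0.520 and 1.22 CPM under SM08502 against 1.17 and 0.998 CPM, with no call, and the difference between the pair was not called for SM08502 (0.76 ± 0.21, adjusted p = 0.0587) or for the combination (0.65 ± 0.21, adjusted p = 0.0504).

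GATA2 was not called in any line, at an SE of 0.40. Under SM08502 the difference from vehicle was -0.38 in Ishikawa, while it was 0.86 in Ishikawa-S33Y, 0.61 in HEC265 and 0.58 in SNGM. Its vehicle and SM08502 libraries did not overlap in 3 lines, but with 2 libraries per group this is no test of a change. They went from 9.76 and 9.94 CPM to 18.3 and 19.0 CPM in Ishikawa-S33Y, from 7.89 and 10.5 CPM to 15.8 and 12.7 CPM in SNGM, and from 12.6 and 12.5 CPM to 18.3 and 21.1 CPM in HEC265. In fits of 1 line alone the adjusted p was 0.0402 for Ishikawa-S33Y, 0.713 for SNGM and 0.00268 for HEC265. Without the 2 shallow libraries it was 0.0217, 0.196 and 0.14.

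PAX2 was not called under any drug. In SNGM it held 26.7 and 43.6 CPM on vehicle, 28.2 and 41.9 CPM under paclitaxel, 51.5 and 40.8 CPM under SM08502, and 46.2 and 34.8 CPM under the combination. The ranges overlapped, and SM08502 gave 0.41 with a 95% interval of -0.00 to 0.83 (adjusted p = 0.257). This interval shares its spread with lines that hold almost no PAX2 reads, so it understates the spread of the SNGM duplicates.

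Paclitaxel alone, at doses that differed between lines, called no member in any line, where 0.0118% of all genes were called for Ishikawa, 0% for Ishikawa-S33Y, 0.0176% for SNGM and 0.00588% for HEC265. An unadjusted p under 0.05 was reached by 2 of the 36 changes, HOXA10 and FOXA2 in Ishikawa, and limma voom called 0. Against paclitaxel, the combination called 10 of 36 changes: 3 of 9 in Ishikawa (14.4% of all genes), 6 of 9 in Ishikawa-S33Y (39.4%), 0 of 9 in SNGM (15.9%) and 1 of 9 in HEC265 (14.9%). Against SM08502 alone it called 0 of 36, with 0%, 0.129%, 0.253% and 0.00588% of all genes called in the 4 lines in the order above. Of these, 6 had an unadjusted p under 0.05, and limma voom called 0. Leaving out 1 library gave 0 to 2 member calls in that comparison. Departure from additivity over lines was called for 0 of 9 members and 0% of all genes, with 1 unadjusted p under 0.05 (HOXA10) and 0 calls by limma voom. These comparisons share their vehicle and combination libraries.

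Averaged over the 4 lines with equal weight, which counts lines without the gene as no change, SM08502 lowered 3 of 9 members. The changes were -0.41 ± 0.13 for PAX8 (adjusted p = 0.0171), -0.39 ± 0.05 for SOX17 (8.06e-06) and -0.43 ± 0.11 for EMX2 (0.00403), where 38.5% of all genes were called. The PAX8 call was lost without the second vehicle library of Ishikawa (adjusted p = 0.05), the second SM08502 library of Ishikawa (0.0571) or the second vehicle library of SNGM (0.0561), and the SOX17 call with limma voom on recovered reads (-0.42 ± 0.22, adjusted p = 0.148). The combination called 6 of 9 (49.1% of all genes), lowering PAX8, SOX17, EMX2 and FOXA2 and raising HOXA10 and WT1. Of these, 4 were lost under some alternative. With limma voom the mean SOX17 change was 0.11 (adjusted p = 0.691) in place of -0.42, and HOXA10 (0.258) and WT1 (0.166) were not called. WT1 was also lost with a pseudocount of 0.1 (0.192), and WT1 (0.0554) and FOXA2 (0.0972) with the length score as a covariate.

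Other genes of the same programmes were read from lists that hold none of the 9. For all lists below the comparison is SM08502 averaged over lines, where 15.8% of all genes tested were called lower and 22.6% higher. Of 23 tested genes of Mullerian duct and uterine patterning, 10 fell and 1 rose, with a median change of -0.19 against 0.05 over all genes. The largest falls were of CELSR1, a planar cell polarity cadherin needed for duct growth (-1.57 ± 0.13, adjusted p = 7.03e-09, called lower in all 4 lines), FGFR2, a receptor of epithelial growth (-0.70 ± 0.08, adjusted p = 5.14e-07), and WNT5A, a mesenchymal Wnt ligand in the normal tract (-0.66 ± 0.13, adjusted p = 0.000342). WNT5A fell in Ishikawa (-1.23) and HEC265 (-1.45) and was 0.28 in SNGM, not called. Of 22 tested genes of the progesterone and implantation pathway, 4 fell and 1 rose, a smaller share than the 38.5% of all genes called in either direction. Among them was PTCH1, the hedgehog receptor and target (-0.67 ± 0.09, adjusted p = 5.57e-06).

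The HOX and paralog lists likewise held fewer calls than the 38.5% of all genes. Among 9 other HOXA genes 1 rose, HOXA4 (0.42 ± 0.12, adjusted p = 0.00694), and 1 fell, HOXA13 (-0.36 ± 0.08, adjusted p = 0.00202). Of 10 tested genes of HOX groups 9 to 13 in other clusters, HOXC10 rose (0.35 ± 0.12, adjusted p = 0.0233) and HOXB9 fell (-0.45 ± 0.13, adjusted p = 0.0107). Of 9 tested paralogs of the members, 1 rose and 1 fell, and PAX6 rose by 0.22 ± 0.06 (adjusted p = 0.00874). In Ishikawa-S33Y PAX6 rose by 0.99 (adjusted p = 8.08e-06), and in the other lines it was not called.

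Markers of cell type moved as well. Against 15.8% of all genes lower and 22.6% higher, 7 of 9 epithelial markers fell, with a median of -0.35 (0.05 over all genes), led by MUC1 (-0.91 ± 0.15, adjusted p = 4.22e-05), CLDN3 (-0.62 ± 0.09, adjusted p = 1.45e-05) and the cadherin CDH1 (-0.57 ± 0.10, adjusted p = 0.000177), which also stands in the patterning list. Of 6 ciliated cell markers 2 fell, FOXJ1, the master factor of motile cilia (-1.37 ± 0.10, adjusted p = 1.89e-09), and PIFO (-0.54 ± 0.08, adjusted p = 1.01e-05). Of 8 stromal markers 2 fell, COL1A1 among them (-0.96 ± 0.18, adjusted p = 0.000308), and of 3 leukocyte markers CD68 rose (1.03 ± 0.09, adjusted p = 3.47e-08). Of 3 endothelial markers 1 rose. The part of these markers in the changes of the 9 factors was not tested.

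The genes whose 16 group means followed each member most closely, by Pearson correlation on the log2(CPM + 1) scale, are named as a description with no test, since groups of 1 line share that line's profile. They were TIMP2 (r = 0.981) and PTPRJ (0.976) for PAX8, PLCB2 (0.997) and ARHGAP4 (0.996) for PAX2, INPP4B (0.993) and the pseudogene RPS2P5 (0.992) for SOX17, and MAP2K6 (0.999) and SOX6 (0.997) for EMX2. For HOXA10 they were TP53BP2 (0.982) and EFNB1 (0.981), for HOXA11 MUC3A (0.988) and PCDH1 (0.986), for FOXA2 SRGAP1 and NT5DC3 (both 0.978), and for WT1 SMIM10 (0.994) and AQP5 (0.991). For GATA2 they were a clone-named transcript (0.929) and HSD17B1P1 (0.905).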

How the data were processed

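RNA of 4 endometrial cancer cell lines was sequenced as 32 libraries in 16 groups of 2, assigned by the line, treatment and replicate in the labels. The authors deposited log10(CPM + 1) values for 35238 genes; back-transformed CPM sum to 1000000 per library, and 100% of values are whole reads, which gave the depths. Per the submitters' processing notes, bcl2fastq, STAR, kallisto and GRCh38 were used; their versions and roles, the annotation and strand of counting are not given in the sources used here.

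Values were taken to log2(CPM + 1) and genes above 1 CPM in at least 2 libraries kept (17011). limma 3.58.1 (R 4.3.3) with an intensity trend was fitted to all groups, with 16 residual degrees of freedom and two-sided tests, in 33 contrasts and 3 F tests. The script was tested on simulated data. Ratios of summed reads carry exact binomial intervals. Alternatives were no filter, a filter at a mean log2 of 2, a pseudocount of 0.1, median or quantile scaling, no trend, the compared lines alone, the replicate number as a block, limma voom on recovered reads, the length score as a covariate, no shallow libraries, and each library left out. The members and lists were chosen with earlier results of these data known. Genes were named if they are members, among the 3 largest called mean changes under SM08502 of a list (mean log2 level at least 1), or among the 2 closest patterns; others are marked as chosen after their values were seen. Splicing tables mentioned in the labels were not used here.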

Additional observations from a re-analysis of the deposited data

Results flagged for a closer look

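For SOX17, FOXA2, HOXA10 and HOXA11 the drug effect differed between lines by a test of the difference itself, limma's F test over the 4 lines or the contrast of the Ishikawa pair. SOX17 differed under SM08502 (adjusted p = 0.000816, lines from -0.93 to 0.00 on the log2 scale) and under the combination (adjusted p = 6.09e-06, from -1.28 to 0.11), and between Ishikawa-S33Y and Ishikawa under the combination (adjusted p = 0.00467). The 0.00 is SNGM, which has no SOX17 reads on vehicle or SM08502. Without SNGM, an alternative chosen after seeing the data, the F test gave adjusted p of 0.00328 for SM08502 and 1.57e-05 for the combination. FOXA2 differed under the combination over lines (adjusted p = 0.000984, from -0.64 to 0.66) and between the Ishikawa pair (adjusted p = 0.00197). HOXA10 differed under the combination (adjusted p = 0.000722, from -0.16 to 0.64). HOXA11 differed under SM08502 (adjusted p = 0.0315, from -0.65 to 0.28), a call lost under 14 of 42 alternatives (adjusted p up to 0.102), 12 of which left out 1 library. WT1 also passed the F test under the combination (adjusted p = 0.0173, from -0.03 to 0.78). WT1 has almost no reads in SNGM and HEC265, so a change in either Ishikawa line is by itself a difference from those lines, and no difference in response is read from this test. Between the Ishikawa pair, both of which have WT1, the contrast was not called (adjusted p = 0.0504). Doses differed between the lines in each case.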

How the results depend on the processing

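Of 37 called differences between lines on vehicle, 34 were called under every alternative that tested them. The exceptions were PAX8 and FOXA2 in HEC265 minus SNGM and PAX8 in SNGM minus Ishikawa. Both counts include PAX2, EMX2 and WT1, which passed the filter only through the lines where they are high. Their difference from the other lines follows from passing it. Of the called drug changes within lines, 1 of 8 for SM08502 (SOX17 in Ishikawa-S33Y) and 2 of 13 for the combination (SOX17 and HOXA10 in Ishikawa-S33Y) were never lost. The count for SM08502 was 5 without a filter and 4 with a pseudocount of 0.1, and that for the combination 8 with a pseudocount of 0.1. The count of line-by-drug differences was 13 without the 2 shallow libraries and 16 with the length score, against 8. Leaving out 1 library, where a lone library is assumed to vary like the rest, gave 5 to 10 calls for SM08502, 9 to 14 for the combination, 37 to 40 between lines, 8 to 11 for the combination against paclitaxel, 8 to 11 averaged over lines, 6 to 13 for line-by-drug differences, 0 to 2 for the combination against SM08502, and 0 to 0 for paclitaxel and for additivity. The sign turned for PAX8 in SNGM minus Ishikawa (-0.31) and in HEC265 minus Ishikawa (-0.98) with the length score, and for SOX17 under the combination averaged over lines with limma voom (0.11); the cause was not tested. Of 122 values not called, 56 changed sign and 30 were called under some alternative. Fits of the compared lines alone could not give averages over lines, additivity or F tests. Replicate numbers did not pair the samples: deviations of same-numbered samples correlated from -0.54 to 0.85 in Ishikawa, -0.06 to 0.13 in Ishikawa-S33Y, -0.59 to 0.78 in SNGM and -0.12 to 0.26 in HEC265. With the replicate block the counts were 39 between lines, 8 for SM08502, 13 for the combination, 8 against paclitaxel, 9 averaged over lines and 8 for line-by-drug differences, and 0 for the rest. The block ended the SM08502 call of FOXA2 in HEC265 (adjusted p = 0.0595) and called EMX2 under SM08502 in Ishikawa (0.0403). In the shallow libraries 3 reads amount to 1.00 and 1.87 CPM, which limits values at that level.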
